A study of Mus musculus with 3 samples.

Results

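The enzymes that build, lengthen and desaturate fatty acids were followed in a mouse T-lymphoma line through 10 genes, Acly, Acaca, Fasn, Scd1, Scd2, Elovl1, Elovl5, Elovl6, Fads1 and Acsl3. All 28 probe sets whose only gene symbol was one of these were taken, of the 45101 probe sets on the array, and each of the 10 genes had at least 1. The line was WR19L, of BALB/c origin, and total RNA of untreated cultures was hybridised to Affymetrix arrays, with 1 array per group. The first group was DKO cells, which are WR19L cells made deficient in flippase activity, stably expressing the Q84E mutant of ATP11A. The second was DKO cells stably expressing wild-type human ATP11A, and the last was parental WR19L cells. ATP11A is a flippase, a pump that flips phospholipids from the outer to the inner face of the cell membrane. The labels name neither the genes disrupted in DKO cells nor whether a line is 1 clone, and DKO cells without a transgene were not analysed here, so knockout, transgene and clonal origin cannot be told apart in any ratio over parental cells. Q84E over wild-type ATP11A compares 1 array each of separate lines. Mutation, transgene level and origin of the line cannot be told apart there either.

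Fatty acids are made in the cytosol. ATP-citrate lyase (Acly) splits citrate into acetyl-CoA, acetyl-CoA carboxylase 1 (Acaca) turns that into malonyl-CoA, and fatty acid synthase (Fasn) joins the units into palmitate. Elongases (Elovl genes) and desaturases (Scd and Fads genes) then set chain length and double bonds, and acyl-CoA synthetases such as Acsl3 activate the acids for use in phospholipids. Proliferating lymphocytes rely on this pathway for membranes, and the transcription factors SREBP1 and SREBP2 are its best known activators.

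The signal used is the deposited MAS5 value on a linear scale, and a ratio is a difference of log2 signals. A signal under the 50th percentile of its array, which was 55.5 for Q84E, 50.5 for wild-type ATP11A and 50.3 for parental cells, was raised to that floor. The brightest probe set stands for a gene, and 11596 genes reached the floor on at least 1 array and were compared. No value has a replicate, so no test was possible. The precision is limited by the number of arrays. As technical error, the SD of a log2 ratio was taken from pairs of probe sets of 1 gene. For Q84E over wild-type ATP11A it was 0.10 in the brightest class (signal above the 90th percentile), 0.18 in the next (from the 75th) and 0.34 in the dim class (from the 50th). Differences between cultures are not covered by it. The mouse Atp11a probe set gave 244 in Q84E cells, 253 in wild-type ATP11A cells and 478 in parental cells, and it need not detect a human transgene. Of 9 T cell markers with a probe set, 8 lay above the 75th percentile on at least 1 array, while Cd3e lay under the floor on all 3. No marker of B cells, macrophages, adipocytes, hepatocytes or fibroblasts reached the 75th percentile on any array. Above the floor on some array were 2 of 4 B cell markers, 3 of 5 macrophage markers, 1 of 4 adipocyte markers, 0 of 4 hepatocyte markers and 1 of 5 fibroblast markers. The summed signals of the 5 lists ran from 86.2 to 281 in Q84E cells, from 94.1 to 306 in wild-type ATP11A cells and from 68.9 to 238 in parental cells. These sums hold signals both above and under the floor, and the highest, that of the macrophage list, came mostly from markers above it.

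Of the 28 probe sets, 22 lay above the floor on all 3 arrays, 3 lay under it on all 3 and 3 on some. All 10 genes passed the filter, 9 of them with the brightest probe set above the floor on every array. Scd1 was the exception. In Q84E cells 8 of the 10 genes had their highest signal of the 3 arrays with the deposited scaling, against 42.9% of all compared genes. With arrays scaled to a common median this no longer held for Acly, Acaca, Scd2 and Fads1. In 6 of the 10 the wild-type ATP11A array was the lowest, against 30.0% of all compared genes. The differences were small throughout.

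**Figure D1:**
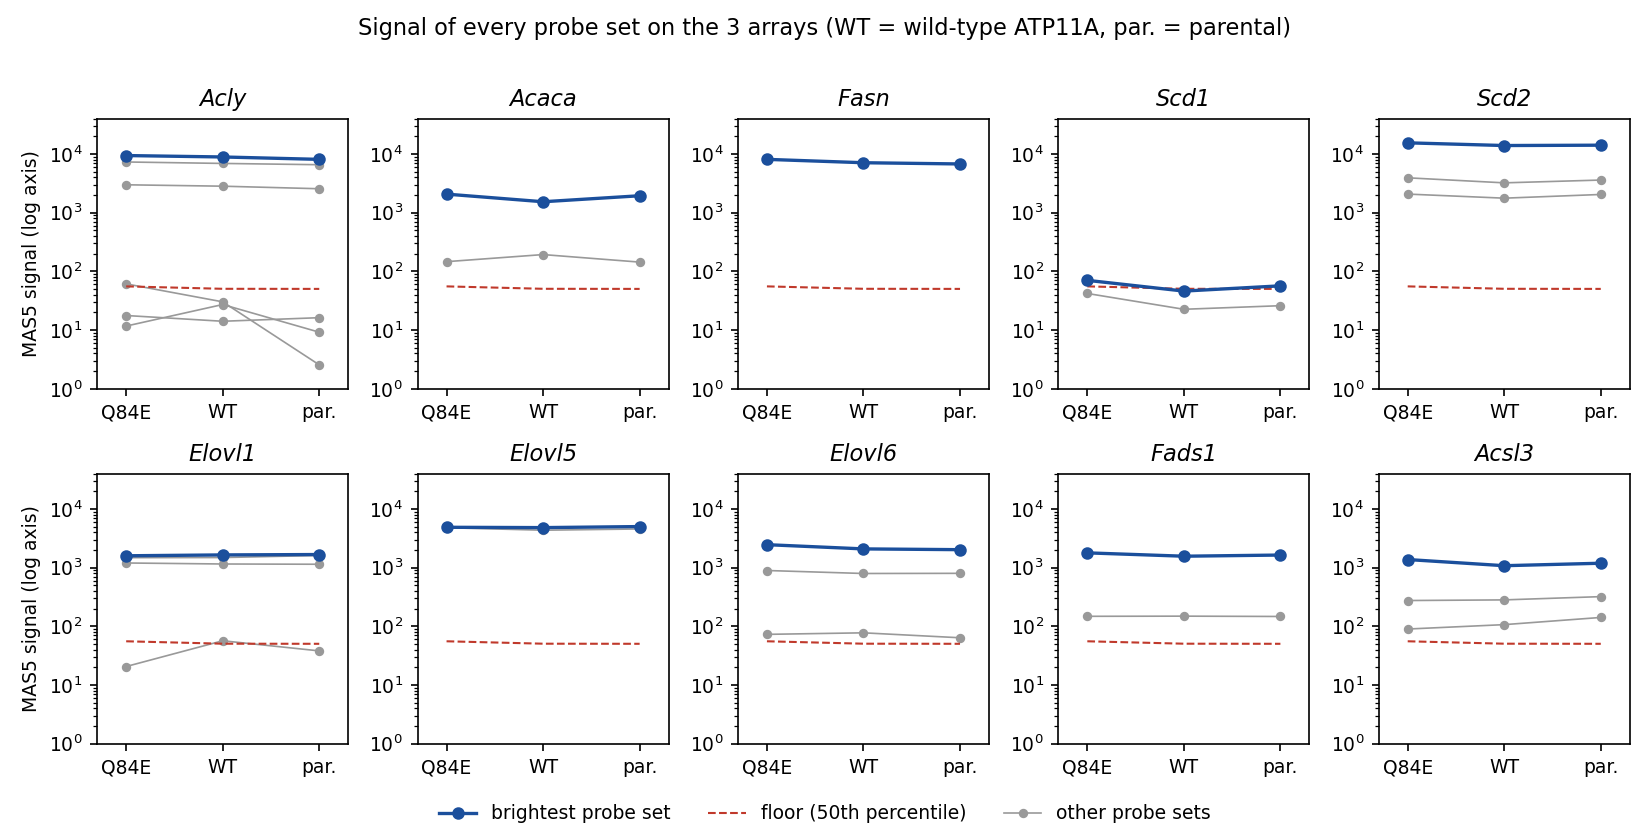
Signal (log axis) of all 28 probe sets of the 10 genes on the Q84E, wild-type ATP11A (WT) and parental (par.) arrays. Blue lines are the brightest probe set of each gene, grey lines the others and the dashed line the floor, which was 55.5, 50.5 and 50.3; Scd1 is the gene whose brightest probe set lies near it.

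The first question was how the pathway compared between the DKO line with the mutant flippase and the DKO line with the normal flippase. For Q84E over wild-type ATP11A, 9 of the 10 genes were above 0, beside a background of 58.1% of compared genes, and the median log2 ratio was 0.19 against 0.05 for all compared genes. Signals of bright genes leaned the other way, since 42.9% of the genes with a mean signal above the 90th percentile were above 0. With arrays scaled to a common median, which is the level used here as the floor, all log2 ratios of Q84E over wild-type ATP11A shift by -0.14. Then 7 of the 10 are above 0, against 33.2% of all compared genes, with Acly and Elovl5 turning below it. The median of the 10 was 0.14 above that of all genes as reported, 0.21 with quantile normalization and 0.04 with the mean of all probe sets of a gene. None of the 10 genes was at least 1.5-fold apart, where 7.75% of all compared genes were. At a lower limit of 0.32 on the log2 scale, 3 of the 10 were apart, Acaca, Scd1 and Acsl3, all higher in Q84E cells, where 23.2% of compared genes were apart in either direction.

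The steps up to palmitate held genes that were nearly level and one that stood apart. Acly had signals of 9421 in Q84E cells, 8911 in wild-type ATP11A cells and 8112 in parental cells. Its 3 probe sets above the floor gave log2 ratios of Q84E over wild-type ATP11A of 0.08 ± 0.0015 (SD over n = 3 probe sets, which share the RNA). The small value was thus the same in every bright Acly probe set, and it is under the technical error of 0.10.

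Acaca had signals of 2074 in Q84E cells, 1538 in wild-type ATP11A cells and 1945 in parental cells, so the wild-type ATP11A array was the low one. The log2 ratio of Q84E over wild-type ATP11A was 0.43, a 1.35-fold higher level and 4.18 times the technical error. With a common median it was 0.29, or 2.85 times the error. The other Acaca probe set, at 147 in Q84E cells, 194 in wild-type ATP11A cells and 144 in parental cells, went the opposite way, with a log2 ratio of -0.40. That lies in a signal class with an error of 0.34. The direction of Acaca thus differs between its probe sets, and their mean was 0.02 ± 0.59 (SD, n = 2 probe sets).

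Fasn had signals of 8112 in Q84E cells, 7109 in wild-type ATP11A cells and 6775 in parental cells. Its single probe set gave 1.14-fold more signal in Q84E than in wild-type ATP11A cells, a log2 ratio of 0.19 or 1.84 times the technical error. With a common median the ratio was 0.05, which is within the error. With the deposited scaling Acly and Fasn had the same order of the arrays, with Q84E highest and parental lowest. With a common median Acly was highest in wild-type ATP11A cells.

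Promoters are shown for Fasn, which has a single probe set, for Acly, whose probe sets above the floor had 1 direction, and for Elovl5, whose brightest probe set was nearly even. As reported, Acly and Elovl5 were both within the technical error, so the choice sets up no contrast between them. The sequences are RefSeq's, build GRCm38.p6, from 250 bases before to 50 after the start site, and 7 of the 10 genes had 1 in the table, with 8 sequences in all. Letters in capitals are matches on either strand to 4 motifs, the sterol regulatory element TCACNCCAC, the CCAAT box CCAAT, which binds NF-Y, the GC box GGGCGG, which binds Sp1, and the E-box CACGTG.
Fasn, chr11:120824498-120824797, minus strand: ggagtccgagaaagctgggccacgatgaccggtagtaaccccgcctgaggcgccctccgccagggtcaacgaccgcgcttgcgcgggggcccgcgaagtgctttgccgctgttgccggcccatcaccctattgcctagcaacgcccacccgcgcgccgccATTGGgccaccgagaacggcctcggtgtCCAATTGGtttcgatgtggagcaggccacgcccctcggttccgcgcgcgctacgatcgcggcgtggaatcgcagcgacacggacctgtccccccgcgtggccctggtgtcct
Acly, chr11:100527951-100528250, minus strand: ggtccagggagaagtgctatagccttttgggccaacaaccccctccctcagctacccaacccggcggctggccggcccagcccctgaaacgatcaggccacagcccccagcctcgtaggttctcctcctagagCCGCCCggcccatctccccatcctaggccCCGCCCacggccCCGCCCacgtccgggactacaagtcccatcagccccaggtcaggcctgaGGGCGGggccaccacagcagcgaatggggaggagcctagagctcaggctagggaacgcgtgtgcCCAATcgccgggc
Elovl5, chr9:77917115-77917414, plus strand: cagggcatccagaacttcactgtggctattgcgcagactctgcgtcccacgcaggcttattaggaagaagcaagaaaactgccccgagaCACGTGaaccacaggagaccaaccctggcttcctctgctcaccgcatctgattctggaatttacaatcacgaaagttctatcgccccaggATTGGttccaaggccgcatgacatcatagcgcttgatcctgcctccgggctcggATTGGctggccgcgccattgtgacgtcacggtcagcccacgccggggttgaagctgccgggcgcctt
The Fasn promoter held 3 CCAAT boxes, 2 of which overlap, as 3.37% of 32851 promoters of this length held at least 3. Elovl5 held 2, and Acly held 1 CCAAT box and 4 GC boxes. A CCAAT box was in 5 of the 8 sequences of these genes, against 37.4% of all promoters, and a GC box in 4 of the 8, against 35.7%. The E-box was in 1 of the 8, that of Elovl5, against 7.15%. The sterol regulatory element in this spelling was in 0 of the 8 and in 1.24% of all promoters. A match is only a match of letters in this window.

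Of the elongases, Elovl6 had the highest ratio of Q84E over wild-type ATP11A. Elovl6 lengthens palmitate to stearate. Its signals were 2460 in Q84E cells, 2084 in wild-type ATP11A cells and 2022 in parental cells, which is 1.18-fold higher in Q84E than in wild-type ATP11A cells, at a log2 ratio of 0.24 or 2.32 times the error. With a common median it was 0.10, or 0.99 times the error. A second Elovl6 probe set had 893, 794 and 799 in Q84E, wild-type ATP11A and parental cells, a log2 ratio of 0.17. The dimmest, at 72.9, 77.4 and 63.8, lay near the floor and had -0.09.

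Elovl5, which lengthens polyunsaturated fatty acids, had signals of 4868 in Q84E cells, 4806 in wild-type ATP11A cells and 5006 in parental cells. The log2 ratios of its probe sets were 0.02 and 0.14 for Q84E over wild-type ATP11A. Elovl1, which makes very long saturated and monounsaturated chains of the kind found in sphingolipids, had 1591 in Q84E cells, 1646 in wild-type ATP11A cells and 1671 in parental cells. Its 3 probe sets above the floor ran from -0.05 to 0.06, and 2 of the 3 were below 0. By their brightest probe sets both were within the error with the deposited scaling. With a common median Elovl5 was at -0.12 and Elovl1 at -0.19, or -1.15 and -1.05 times the error. The median of all compared genes was then -0.09. With quantile normalization Elovl5 was at 0.07 and Elovl1 at -0.05. All 3 probe sets of Elovl1 above the floor are of the kind that can share sequence with other transcripts.

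The stearoyl-CoA desaturases put the first double bond into saturated chains. Scd2 is the bright one of the pair in these cells. Its brightest probe set gave 15514 in Q84E cells, 13957 in wild-type ATP11A cells and 14150 in parental cells. The other Scd2 probe sets gave 3933, 3229 and 3602, and 2077, 1769 and 2046, in the same order of cells. On each of the 3 Scd2 probe sets Q84E was the highest array and wild-type ATP11A the lowest. With a common median the Q84E signal of the brightest fell just below parental, at a log2 ratio of -0.01. The log2 ratios of Q84E over wild-type ATP11A were 0.15, 0.28 and 0.23, or 0.22 ± 0.07 (SD, n = 3 probe sets).

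Scd1, the main form in liver and fat, was near background. Its brighter probe set gave 70.4 in Q84E cells, 46.2 in wild-type ATP11A cells and 56.7 in parental cells. Only the wild-type ATP11A signal lay under its floor, so the level in Q84E cells was at least 1.39-fold higher, in a signal class with an error of 0.34 on the log2 scale. The dimmer Scd1 probe set, at 42.1, 22.6 and 26.0 in Q84E, wild-type ATP11A and parental cells, lay under the floor on every array. Without Scd1 the median log2 ratio of Q84E over wild-type ATP11A was 0.19 over 9 genes, and 8 of the 9 were above 0.

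Fads1, the delta-5 desaturase that makes arachidonic acid, had signals of 1784 in Q84E cells, 1564 in wild-type ATP11A cells and 1637 in parental cells, a log2 ratio of Q84E over wild-type ATP11A of 0.19. This is 1.07 times the error of its signal class. The dim Fads1 probe set was level, at 148 in Q84E cells, 149 in wild-type ATP11A cells and 147 in parental cells.

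Acsl3 encodes a long-chain acyl-CoA synthetase of the endoplasmic reticulum and lipid droplets. Its brightest probe set, which is of the less specific kind, gave 1373 in Q84E cells, 1078 in wild-type ATP11A cells and 1188 in parental cells. The log2 ratio of Q84E over wild-type ATP11A was 0.35, a 1.27-fold higher level or 1.97 times the error. The other Acsl3 probe sets did not show it, with 275, 282 and 320, and with 89.8, 107 and 142, in Q84E, wild-type ATP11A and parental cells. Both had the parental array highest, and their log2 ratios of Q84E over wild-type ATP11A were -0.04 and -0.25. Without the less specific probe sets the direction of Acsl3 therefore reverses.

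**Figure D2:**
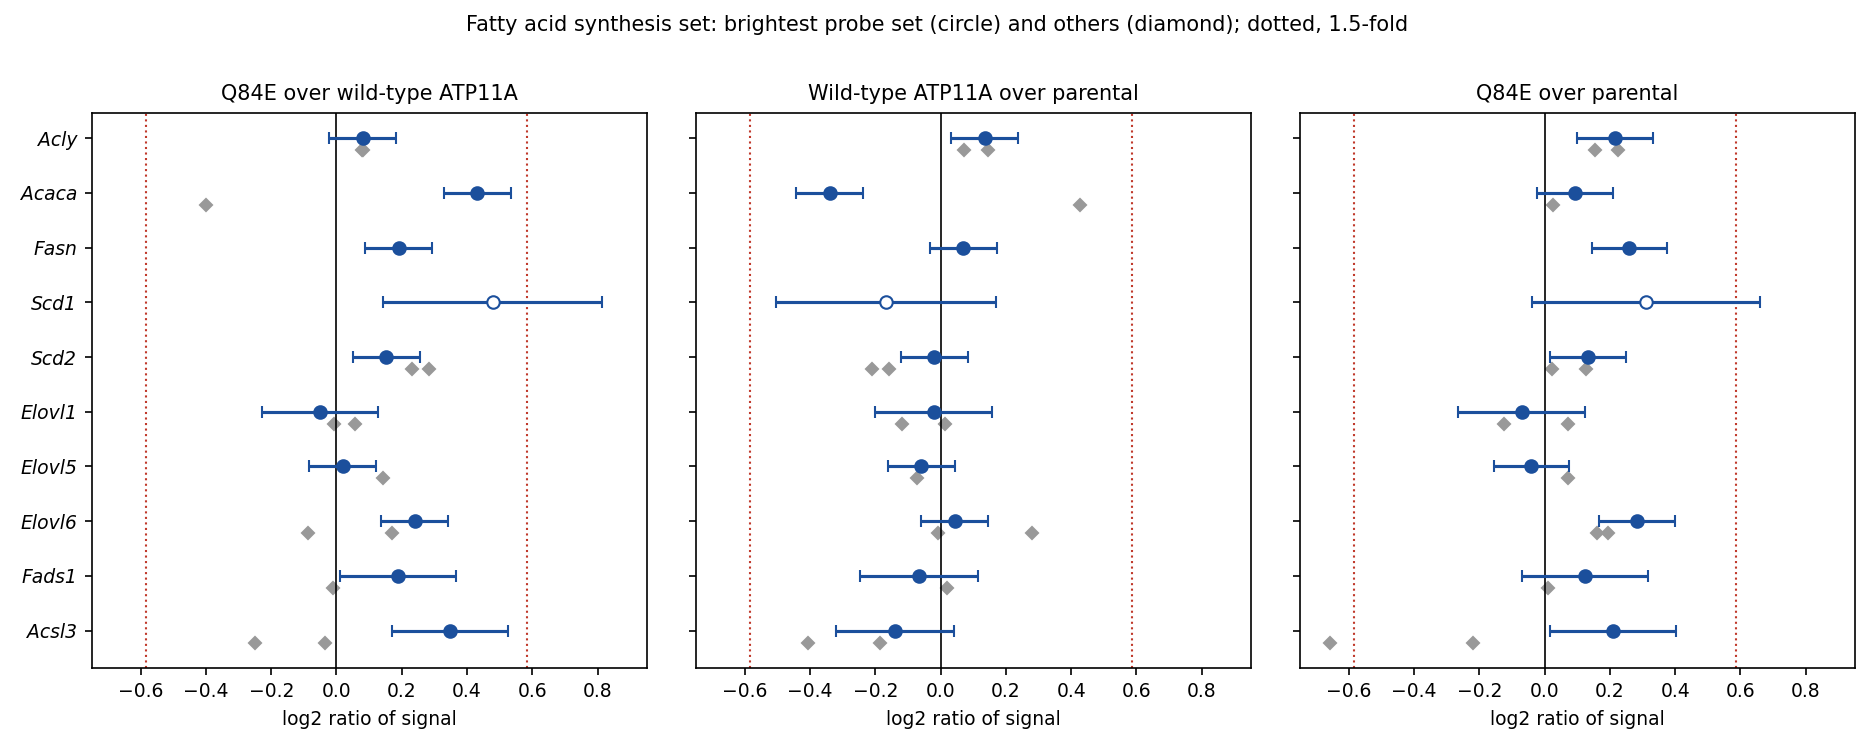
Log2 ratio of each of the 10 genes in 3 comparisons, which share arrays. Circles are the brightest probe set with the technical SD of its signal class, open for Scd1, which has a level under the floor, and diamonds are the other probe sets above the floor on all 3 arrays. No circle passes the dotted 1.5-fold lines, and 5 of the 8 genes with several probe sets (Acaca, Acsl3, Elovl1, Elovl6 and Fads1) have them on both sides of 0 for Q84E over wild-type ATP11A. With a common median, circles of Acly and Elovl5 fall below 0 in that panel, and those of Acaca, Scd2 and Fads1 below 0 for Q84E over parental.

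The probe sets differed by brightness. For Q84E over wild-type ATP11A, 15 of the 17 probe sets at or above the 75th percentile were above 0, where 49.7% of all named probe sets of that brightness were. Of the 5 dimmer probe sets above the floor none was above 0, where 61.9% of all named ones were. Their log2 ratios ran from -0.40 to -0.01, against -0.05 to 0.43 in the brighter ones. The split was noticed after the values were seen. Of the 8 genes with at least 2 probe sets above the floor, 3 had all of them on 1 side of 0, namely Acly, Scd2 and Elovl5.

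Bright genes were also taken on their own, as the 2804 compared genes with a mean signal over the 3 arrays above the 90th percentile, a limit chosen after the values were seen. They include 6 of the 10 genes, and the median log2 ratio of Q84E over wild-type ATP11A of all 2804 was -0.03. Of these bright genes 1.36% had a higher ratio than Acaca, 5.88% than Elovl6 and 9.13% than Fasn. For Scd2 it was 12.7%, for Acly 23.6% and for Elovl5 37.9%. At least 0.32 apart in either direction were 5.81% of them, and Acaca was the 1 of the 6 that was.

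**Figure D3:**
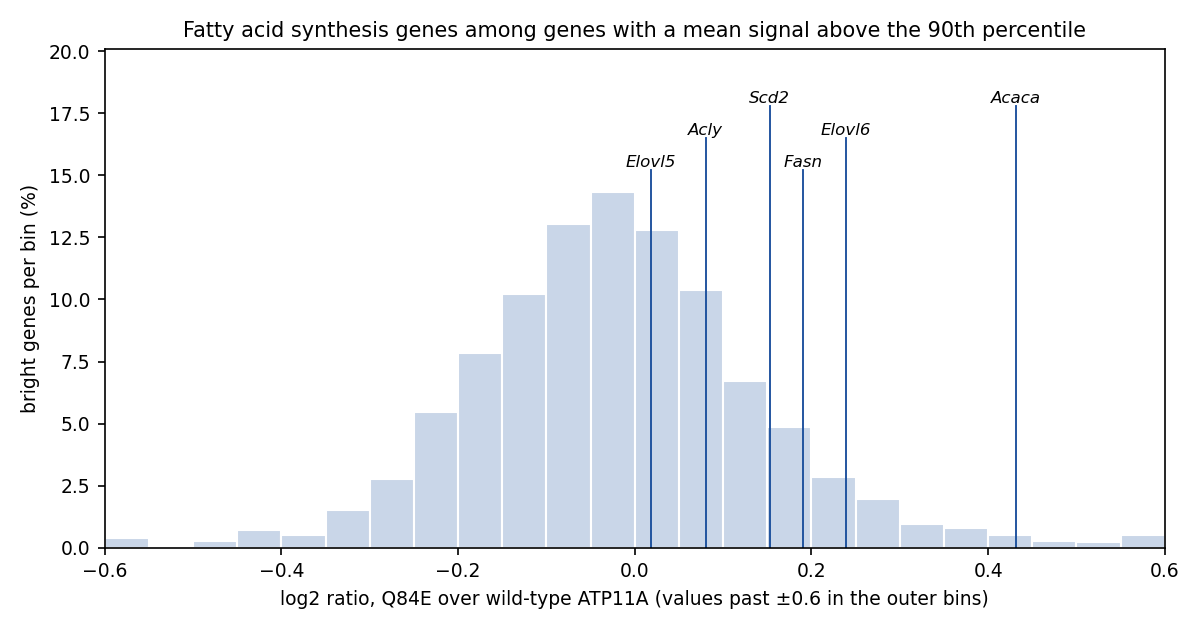
Distribution of the log2 ratio of Q84E over wild-type ATP11A for the 2804 genes with a mean signal above the 90th percentile, in percent of genes per bin, with lines at the 6 of the 10 genes among them. The lines run from 0.02 for Elovl5 to 0.43 for Acaca, and the bright genes' median is -0.03; all values move down by 0.14 with a common median, where Elovl5 and Acly lie below 0.

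The comparison of wild-type ATP11A with parental cells asked how the pathway differs between the DKO line with the normal flippase and the parental line. It was close to even, with 3 of the 10 genes above 0 (Acly, Fasn and Elovl6), beside 54.2% of all compared genes. The median log2 ratio was -0.04, against 0.01 for all compared genes. None of the 10 was 1.5-fold apart, against 7.07% of compared genes. Acaca, 1.27-fold lower, was the 1 gene at least 0.32 apart, against 20.7% of compared genes. Its log2 ratio was -0.34, or -3.31 times the error, and its dimmer probe set again had the opposite sign, at 0.43. Acly was at 0.14, with its 3 probe sets between 0.07 and 0.14. All 3 probe sets of Scd2 were below 0, at -0.02, -0.16 and -0.21, and all 3 of Acsl3, between -0.41 and -0.14.

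For Q84E over parental cells, 8 of the 10 genes were above 0, beside 59.7% of compared genes, and with a common median 5 of the 10 were, beside 37% of compared genes, with Acaca, Scd2 and Fads1 turning below 0. The median log2 ratio was 0.17, against 0.07 for all compared genes. None of the 10 was 1.5-fold apart by its brightest probe set, against 10.3% of compared genes, and none was 0.32 apart, against 28.3%. Elovl6 was 1.22-fold higher, Fasn 1.20-fold and Acly 1.16-fold, at log2 ratios of 0.28, 0.26 and 0.22, which are 2.44, 2.24 and 1.86 times the error. With a common median the same ratios were 0.14, 0.12 and 0.07, or 1.21, 1.01 and 0.63 times the error. Every probe set of these 3 genes above the floor on all arrays was above 0, for Acly at 0.20 ± 0.04 and for Elovl6 at 0.21 ± 0.06 (SD, n = 3 probe sets each). Acaca, by contrast, was at 0.09, since its Q84E and parental signals were close. Acsl3 had 0.21 by its brightest probe set and -0.22 and -0.66 by the others, the last past the 1.5-fold limit in a dim probe set. Elovl1 and Elovl5 were at -0.07 and -0.04.

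By the brightest probe sets the order of the arrays was as follows, with most differences between wild-type ATP11A and parental cells within the technical error. Acly, Fasn and Elovl6 had the order Q84E, wild-type ATP11A, parental from high to low, while Acaca, Scd1, Scd2, Fads1 and Acsl3 had the Q84E array highest and the wild-type ATP11A array lowest. Elovl5 also had the wild-type ATP11A array lowest, with parental highest, and Elovl1 ran from parental down to Q84E. With a common median the Q84E array was no longer highest for Acly, Acaca, Scd2 and Fads1. The wild-type ATP11A array was then no longer lowest for Elovl5. With the deposited scaling most T cell markers were also low on the wild-type ATP11A array. Of 8 compared, 7 were above 0 for Q84E over wild-type ATP11A, with a median of 0.24, beside 58.1% of all compared genes. The ratios of Cd3g, Cd247 and Ptprc were 0.06, 0.11 and 0.06. With the shift of -0.14 that a common median brings, these 3 fall below 0. For wild-type ATP11A over parental 1 of the 8 markers was above 0, with a median of -0.41, beside 54.2%. Their summed signal was 57615 in Q84E cells, 52395 in wild-type ATP11A cells and 59116 in parental cells. Of these markers Cd3d and Cd2 were the furthest apart. Cd3d had 6976 in Q84E cells, 4272 in wild-type ATP11A cells and 6898 in parental cells, and Cd2 had 1584, 821 and 1518. Lat went the other way, with 16834, 17599 and 16203 in the same order of cells. The part of these marker levels in the values of Acaca, Scd2, Fads1 and Acsl3 was not tested.

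Nearest to Acaca in pattern, by Euclidean distance of the 3 centred log2 levels, were 4933439C10Rik, Tgfa, Btbd9, Gcfc2 and Nav1, at distances of 0.0054, 0.0057, 0.0070, 0.012 and 0.012. The pattern is that of the brightest Acaca probe set, and the other differs in sign. 4933439C10Rik, Tgfa and Nav1 were dim, at 127, 129 and 92.4 in Q84E cells. The error of that signal class, 0.34 for Q84E over wild-type ATP11A, is far larger than these distances. With 3 arrays many genes come close, and 179 of 11595 lay within 0.1. Of the other 9 genes of the pathway none was that close. Acsl3 was the nearest at 0.14 and Acly the furthest at 0.35.

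Other genes of the pathway and its neighbours were counted by list, over genes above the floor on all 3 arrays. The cytosolic precursor list had 4 of 7 genes above 0 for Q84E over wild-type ATP11A, where 55.5% of all such genes were. The median of the list was 0.08. Besides suppliers of acetyl-CoA and reducing power, the list counts Acacb, Mid1ip1 and Mlycd. By their brightest probe sets Acacb, Idh1 and Pgd were below 0, at -0.23, -0.04 and -0.27, and were named after their values were seen. Acss2, which makes cytosolic acetyl-CoA from acetate, had 329 in Q84E cells, 243 in wild-type ATP11A cells and 217 in parental cells, a log2 ratio of 0.44 over wild-type ATP11A cells and of 0.60 over parental cells. A dimmer Acss2 probe set above the floor on all arrays gave 0.66 and 1.15 in the same 2 comparisons, and another, above the floor on the wild-type ATP11A array only, gave a bound of -0.08 for the first. Slc25a1, the mitochondrial citrate carrier that feeds Acly, had 2198 in Q84E cells, 2076 in wild-type ATP11A cells and 1863 in parental cells, the same order as Acly.

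Of the other elongation enzymes, 3 of 6 above the floor were above 0, with a median of -0.06 and none 0.32 apart. Hsd17b12, the ketoacyl reductase of the cycle, was at 0.04, and Tecr, its last reductase, at 0.16, with its second probe set at 0.17. The brightest Elovl7 probe set lay under the floor on all 3 arrays. Of other desaturases and their electron donors 3 of 6 were above 0, and 2 of the 6, Cyb5a and Cyb5b, were at least 0.32 lower in Q84E cells. These, at -0.32 and -0.37, encode cytochromes b5, which pass electrons to desaturases, and lay at the limit or past it, where 6.26% of genes above the floor on all 3 arrays were that much lower. The other Cyb5b probe sets were at 0.04 and -0.30, and Cyb5a and Cyb5b were named after their values were seen. Fads2, the delta-6 desaturase that acts before Fads1, had 1210 in Q84E cells, 1021 in wild-type ATP11A cells and 1137 in parental cells. Its log2 ratio of Q84E over wild-type ATP11A was 0.25, with 0.29 by a second probe set and -0.12 by a dim one. Fads1 and Fads2 thus had the same order of arrays by their brightest probe sets.

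Among other acyl-CoA synthetases and binding proteins 4 of 7 were above 0, with a median of 0.01. Acsl5 was at 0.10. Acsl4, which prefers arachidonic acid, was at -0.13 for Q84E over wild-type ATP11A and at 0.45 for wild-type ATP11A over parental cells, with all 3 of its probe sets between 0.33 and 0.52 in the second. This differs from Acsl3, which was below 0 there. Mitochondrial fatty acid synthesis had 3 of 8 genes above 0 and a median of -0.09. Oxsm, its ketoacyl synthase, had 540 in Q84E cells, 422 in wild-type ATP11A cells and 359 in parental cells, 1.51-fold higher in Q84E than in parental cells, with 0.27 on the log2 scale by its other probe set above the floor. Acylation of glycerol lipids had 5 of 11 above 0 and a median of -0.01. Fatty acid oxidation had 10 of 15 above 0 and a median of 0.01, and Cpt1a, its entry enzyme, was at 0.05, with -0.30 and -0.34 by its dimmer probe sets.

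Regulators were split for Q84E over wild-type ATP11A, with 7 of 14 above 0. The share of genes above the floor on all 3 arrays was 55.5%, and the regulators' median was -0.01. Srebf1, which encodes SREBP1, had 2981 in Q84E cells, 2254 in wild-type ATP11A cells and 2126 in parental cells, a log2 ratio of 0.40 over wild-type ATP11A cells and 0.49 over parental cells. Srebf2 had 2987 in Q84E cells, 2371 in wild-type ATP11A cells and 1968 in parental cells, at 0.33 and 0.60, with 0.22 and 0.40 by its second probe set. Scap, the escort of SREBPs, was at 0.22 over wild-type ATP11A cells. The proteases that release active SREBPs, Mbtps1 and Mbtps2, lay on the other side of 0, at -0.21 and -0.06, and were named after their values were seen. Insig1, which retains the SREBP complex and is itself an SREBP target, had 2099 in Q84E cells, 1766 in wild-type ATP11A cells and 1539 in parental cells, and Insig2 was at 0.01.

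Of the 16 regulators compared, 2 were at least 1.5-fold apart for Q84E over wild-type ATP11A, against 7.75% of all compared genes. Prkaa2, a catalytic subunit of AMPK, the kinase that inhibits acetyl-CoA carboxylase, had 708 in Q84E cells, 375 in wild-type ATP11A cells and 516 in parental cells. It was 1.89-fold higher in Q84E than in wild-type ATP11A cells, with a log2 ratio of 0.80 by its second probe set above the floor. Prkaa1, the other catalytic subunit, went the other way, with 414 in Q84E cells, 485 in wild-type ATP11A cells and 409 in parental cells. Its log2 ratio of Q84E over wild-type ATP11A was -0.23, and it was named after its values were seen. Lpin1, a phosphatidate phosphatase that also acts on SREBP1, had 462 in Q84E cells, 239 in wild-type ATP11A cells and 223 in parental cells, and both of its probe sets were at 0.95 over wild-type ATP11A cells.

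The median of cholesterol synthesis was close to that of the 10 genes. For Q84E over wild-type ATP11A, 16 of 18 genes there were above 0, against 55.5% of genes above the floor on all 3 arrays. Their median was 0.17. For Q84E over parental cells 16 of 18 were above 0, against 57.4% of such genes, with a median of 0.24. The list also counts Stard4, which is not a synthesis enzyme. A common median shifts every ratio of Q84E over wild-type ATP11A or over parental cells by -0.14, and the list counts were not repeated with it. For wild-type ATP11A over parental cells the median was 0.07 with 13 of 18 above 0, against 52.7% of such genes. The fatty acid genes above the floor on all 3 arrays had -0.02 there, with 3 of 9 above 0. The difference between the 2 lists was not tested. Acsl1 was not analysed here.

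**Figure D4:**
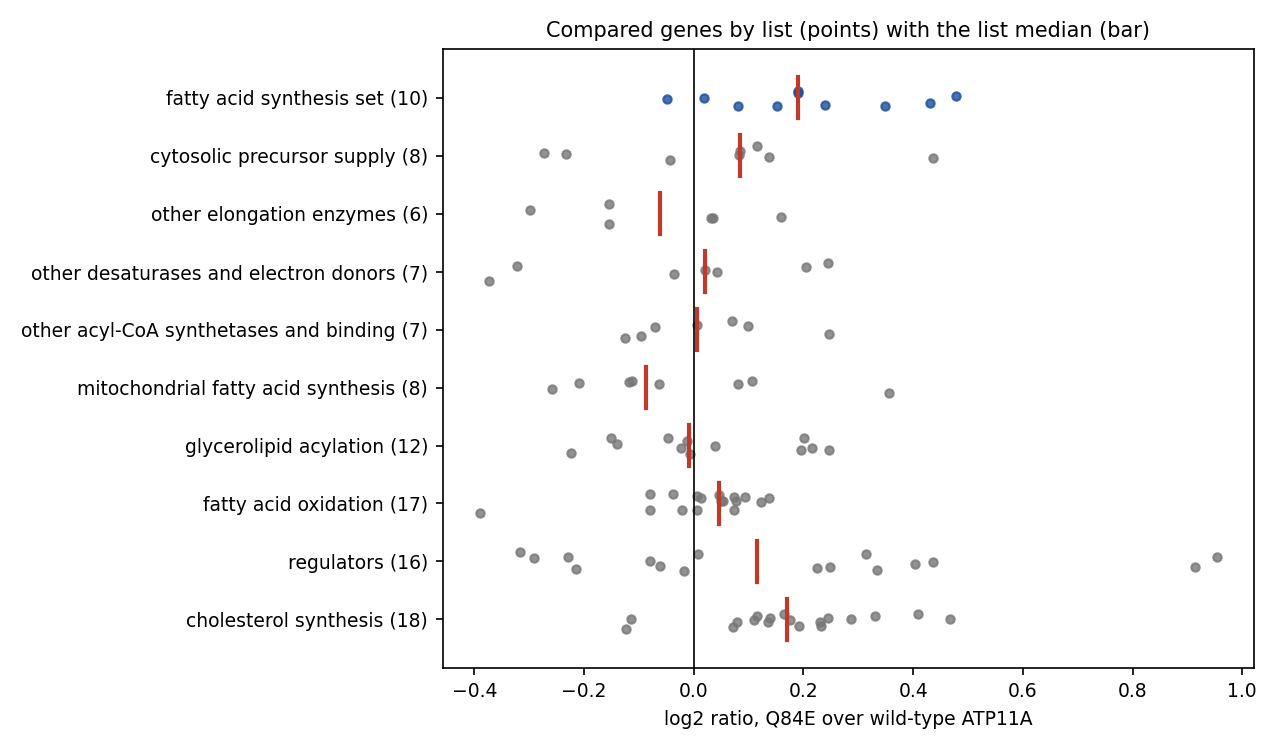
Log2 ratio of Q84E over wild-type ATP11A for each compared gene (points, spread at random along the vertical within a list) of the fatty acid synthesis set and of 9 related lists, with the number compared in brackets and the median as a red bar. The bar of the 10 genes is at 0.19 and that of cholesterol synthesis at 0.17; a common median moves every point down by 0.14. Bars here include genes with a level under the floor.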

How the data were processed

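Each group had 1 array, made from 250 ng of total RNA per the labels' protocols, and groups followed the genotype or title in the labels. The authors deposited 1 linear intensity (signal) for each probe set, and MAS5 is the tool that the submitters' processing notes name, without a version. The 2% trimmed mean was 500.0 on each array, so arrays had been scaled to it, and that was kept. MAS5 gives a single factor per array, so a shift of many genes can be hidden or spread. Gene symbols came from the platform's annotation, with 34958 probe sets of exactly 1 symbol, 932 of several and 9211 unlisted, and all 10 genes matched RefSeq by Entrez identifier.

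From the deposited signals, log2 levels with a floor at each array's 50th percentile were computed in Python 3.11.15 with pandas 2.3.3 and numpy 2.4.6. A gene was its probe set with the highest mean log2 signal, compared if it reached the 50th percentile on at least 1 array. The technical SD is that of the difference in log2 ratio between 2 probe sets of a gene in the same signal class, both above the floor on all arrays, scaled to 1 probe set. Less specific probe sets are those with the suffix s, x or a. Calls are by size alone, at 0.32 on the log2 scale and at 1.5-fold. The steps were tested on simulated data. Named genes were the 10, fixed examples of each list, and list genes at least 1.5-fold apart with a signal at or above the 75th percentile. The genes and lists were chosen with earlier results of these data known. Alternatives covered scaling, probe set choice, floor, filter and fold limit.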

Additional observations from a re-analysis of the deposited data

How the results depend on the processing

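No paired analysis was possible because each group has 1 array, and no replicate could be left out. The median log2 ratio of the 10 genes for Q84E over wild-type ATP11A, 0.19, became 0.053 with a common median and 0.099 with the mean of all probe sets past the filter. For wild-type ATP11A over parental cells, -0.04 became -0.0060 with that mean, and 5 of the 10 genes were then above 0 instead of 3. For Q84E over parental cells, 0.17 became 0.028 with a common median, with 5 genes above 0 instead of 8, and 0.080 with the mean of all probe sets. It was 0.13 over 9 genes without less specific probe sets, with a filter at the 75th percentile, or over genes above the floor on all arrays, the last chosen after seeing the data. Relative to all genes, the mean of all probe sets left distances of 0.04, -0.01 and 0.01 in the 3 comparisons, against 0.14, -0.05 and 0.10 as reported. With no gene past 1.5-fold as reported, a floor at the 25th percentile gave 1 for Q84E over wild-type ATP11A, which is Scd1, and a limit of 0.32 on the log2 scale gave 3 there and 1 for wild-type ATP11A over parental cells. The other planned settings moved each median of the 10 genes by less than the technical SD of bright probe sets divided by the square root of the number of genes. Acsl3 changed sign without less specific probe sets, to -0.04 for Q84E over wild-type ATP11A and -0.22 over parental cells. Causes were not tested. Low signal limits Scd1 most.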
